A study of Mus musculus with 12 samples.

Results

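Amino acid transporters of 7 solute carrier families were followed in peritoneal exudate cells, a mixture of leukocytes and some lining cells rinsed from the abdomen. The members are every probe of the array whose deposited gene name belongs to the SLC1, SLC3, SLC6, SLC7, SLC36, SLC38 or SLC43 family, which gave 95 probes for 55 genes of the 41174 probes for 27670 genes on the array. A probe was tested where every array of some group had it well above background, which held for 51 of these probes (34 genes) and for 27715 probes in all. The other members' probes were not tested, and 21 genes had no tested probe.

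Amino acids cross membranes through carriers that differ in substrate and driving force. SLC7 light chains pair with an SLC3 heavy chain and exchange an amino acid inside the cell for another outside, cationic SLC7 carriers let in arginine and lysine, and SLC1, SLC6 and SLC38 carriers draw on the sodium gradient. SLC36 carriers such as Slc36a1 run on protons, some of them at lysosomes, and SLC43 carriers let large neutral amino acids equilibrate. In macrophages arginine entry feeds nitric oxide synthase and arginase, cystine entry feeds glutathione synthesis, and leucine and glutamine entry is sensed by the growth kinase mTORC1.

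The study asked which effects of interferon beta (IFN-β) need Ifnar2, a subunit of the receptor for type I interferons. Its 4 groups of 3 arrays were Ifnar2-/- cells after IFN-β, Ifnar2-/- cells after saline (PBS), wild-type cells after IFN-β and wild-type cells after PBS. All mice were females of 8 weeks with the strain given as 129S2/SvPas*BALB/c, a different mouse was used for each sample, and the cells were lysed 3 hours after the injection into the abdominal cavity. The agent was given at 10000 IU/ml, and no source used here gives the injected volume.

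A level below is the log2 processed signal of a probe minus the 75th percentile of its array, so that levels of the same probe can be compared between arrays but not levels of different probes. A difference is a log2 difference between group means with its standard error (SE), and a call needs a Benjamini-Hochberg adjusted p under 0.05 over all 27715 probes. Errors of levels are standard deviations (SD) over the 3 arrays of a group. Because the samples are mixtures, fewer cells of a type and less RNA per cell cannot be told apart.

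Between 59.4% and 71.6% of the spots of an array were well above background, with 59.4% to 62.5% on the 4 arrays of slide 3, which held only Ifnar2-/- cells. Ifnar2 itself was detected on all 12 arrays by both of its probes, and both separated the genotypes without overlap. A_52_P190405 lay at 2.69 to 3.20 in Ifnar2-/- cells and at 4.42 to 4.87 in wild-type cells, whereas A_51_P338924 lay at 2.49 to 3.11 in Ifnar2-/- cells and at 1.08 to 1.78 in wild-type cells. No source used here names the removed exons, so neither probe is known to lie in the deleted part. Markers of large peritoneal macrophages, B cells and mast cells were detected on all 12 arrays for every listed gene on the array (9, 9 and 9 genes), as were the 7 monocyte and 10 T and NK cell markers. The eosinophil marker Epx was above background on no array.

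The probe sequences below are the 60-base oligonucleotides whose signals carry the main results, with positions on the build named in the file headers, mm7 (NCBI35). The 4 Slc7a11 probes are shown because their detection and their calls differed, and the others because they mark the steepest response (Slc7a2), the member called in both genotypes without a difference between them (Slc7a5), and the Slc38a1 probe with the smallest error.
Slc7a11 A_51_P129502 (chr3:50496689-50496748, minus strand): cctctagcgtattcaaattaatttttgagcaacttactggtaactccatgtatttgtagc
Slc7a11 A_52_P663446 (chr3:50490980-50491039, minus strand): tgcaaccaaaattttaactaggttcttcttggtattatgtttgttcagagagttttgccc
Slc7a11 A_52_P368057 (chr3:50490342-50490401, minus strand): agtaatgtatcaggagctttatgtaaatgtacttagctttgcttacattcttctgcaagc
Slc7a11 A_52_P298824 (chr3:50567425-50567484, minus strand): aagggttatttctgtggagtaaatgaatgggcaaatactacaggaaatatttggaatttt
Slc7a2 A_52_P77764 (chr8:39701203-39701262, plus strand): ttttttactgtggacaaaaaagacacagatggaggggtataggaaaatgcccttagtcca
Slc7a5 A_51_P273639 (chr8:120523247-120523306, minus strand): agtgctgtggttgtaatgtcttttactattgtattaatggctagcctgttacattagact
Slc38a1 A_52_P430462 (chr15:96573044-96573102, minus strand): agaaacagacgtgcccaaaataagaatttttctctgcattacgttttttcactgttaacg

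In Ifnar2-/- cells 3 of the 51 probes rose (Slc7a11, Slc7a5 and Slc7a2) and 0 fell, where 0.942% of all tested probes rose and 0.173% fell. In wild-type cells 8 probes of 7 genes rose and 20 probes of 10 genes fell, where 18.5% of all tested probes rose and 21.5% fell, so the wild-type share of risers was near that of the array. In wild-type cells the arginine carrier Slc7a2 and the leucine carrier Slc7a5 were among the risers. The SLC38 carriers Slc38a1 and Slc38a2 and the SLC36 carriers Slc36a1 and Slc36a4 were among those that fell. Of the cystine carriers, Slc7a9 was called there, near the detection limit, and Slc7a11 was not. The test of the difference between the responses, Ifnar2-/- minus wild type, called 13 probes of 6 genes above 0 and 5 probes of 5 genes below 0, against 8.46% and 9.27% of all tested probes. Slc7a11, Slc7a9 and Slc7a3 were tested only because they were detected in the group where they were high, so their calls support no count. Among member probes well above background on all 12 arrays there were 2 calls in Ifnar2-/- cells, 26 in wild-type cells and 16 for the difference. Of all 23006 such probes, 308 rose and 81 fell in Ifnar2-/- cells, and 4597 rose and 5506 fell in wild-type cells. For the difference 2332 were called above 0 and 2296 below. The median difference of the 51 probes was 0.10 in Ifnar2-/- cells and -0.19 in wild-type cells, and the medians of all probes were -0.03 and -0.04. Genes with several probes weigh on these values, and SLC38 probes made up 9 of the wild-type falls and 8 of the differences above 0. With 1 probe per gene the medians of the 34 genes were 0.11 and -0.01, and those of all genes were -0.05 and -0.04.

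**Figure D1:**
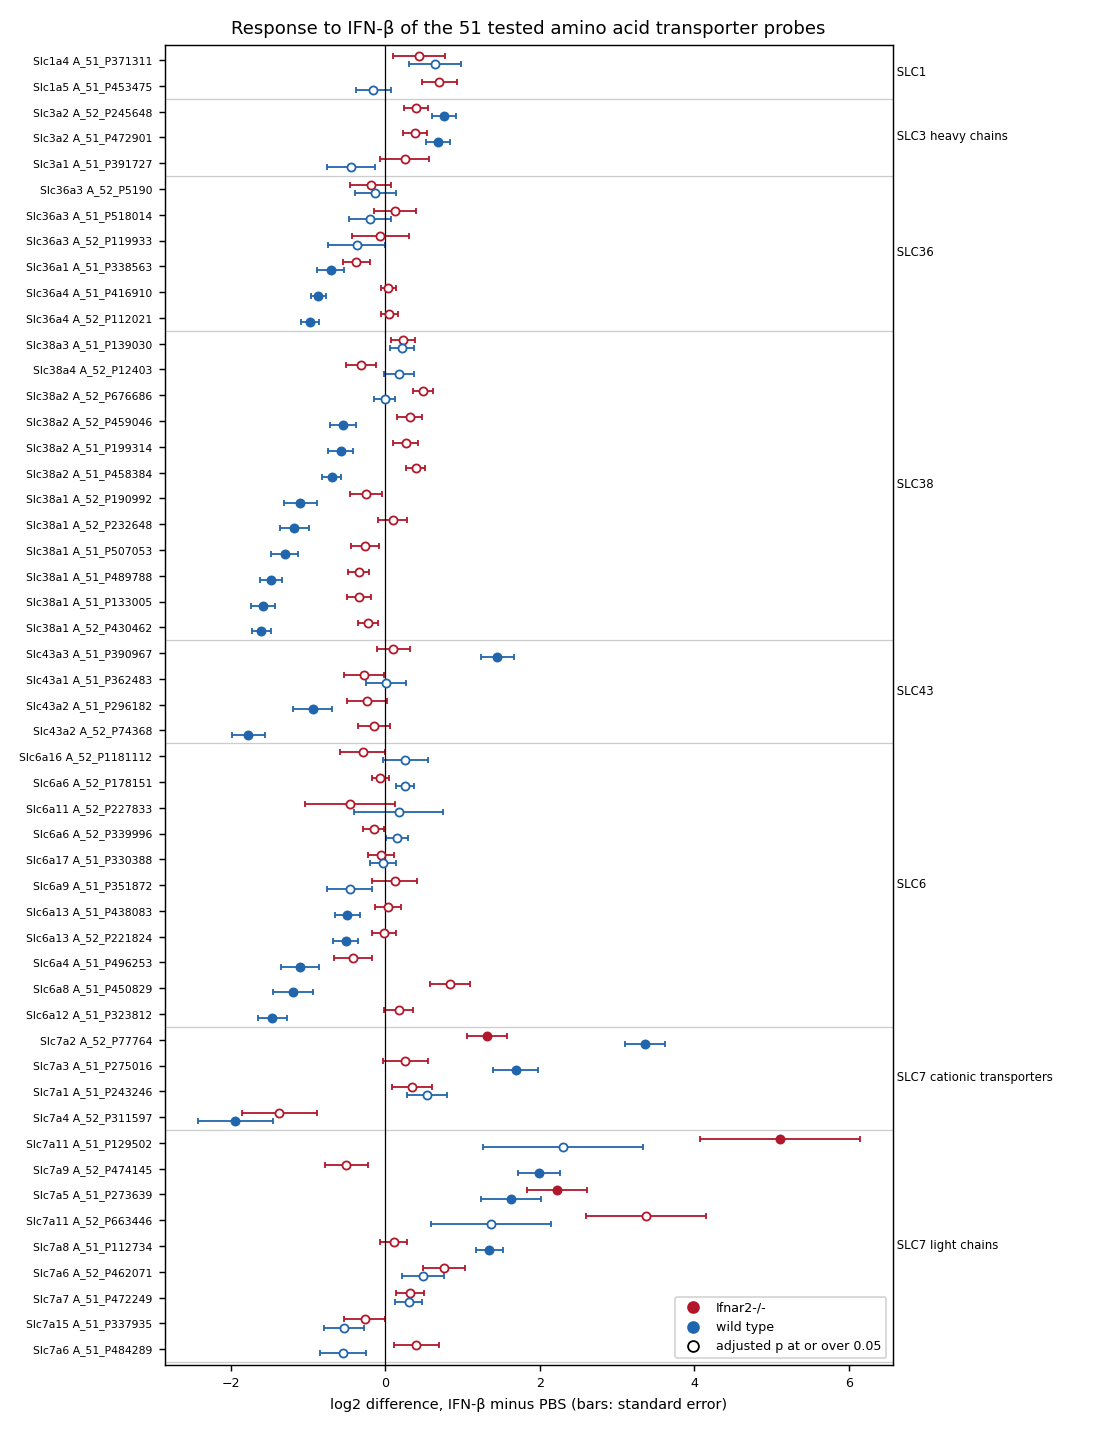
Log2 difference between IFN-β and PBS (horizontal axis, with standard errors) for each of the 51 tested probes, grouped by family, in Ifnar2-/- cells (red) and wild-type cells (blue); filled points have an adjusted p under 0.05. Wild-type points spread from -1.94 to 3.36 and 28 are filled, and 3 Ifnar2-/- points are filled.

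Slides split the groups unevenly. Slide 1 held all wild-type PBS arrays and wild-type IFN-β replicate 1, and within it 28 of the 28 wild-type calls kept their direction. In Ifnar2-/- cells the 3 calls kept theirs within slide 2 and within slide 3. These are the same arrays that made the calls, so agreement in direction was likely beforehand and does not test for a slide effect. With slide as a fixed block the wild-type calls numbered 20. That fit sets wild-type IFN-β replicate 1 against the wild-type PBS arrays of slide 1, so it is less precise. Over all probes it called 3191 up and 3675 down in wild-type cells, against 5131 and 5955 without the block. Whether a call that ended with this term did so through lost precision or a slide effect was not tested. Monocyte and small macrophage markers, 7 of 8 on the array, summed to 413 to 484 in wild-type IFN-β cells and 150 to 198 in wild-type PBS cells, in units where the 75th percentile of an array is 1. In Ifnar2-/- cells the same sum was 175 to 367 after IFN-β and 135 to 154 after PBS. In these cells Cd14 alone of the markers separated the groups, with levels of 6.36 to 7.87 after IFN-β and 4.95 to 5.10 after PBS. In wild-type cells Ly6c1, Chil3, Plac8, Ms4a6c and Cd14 were higher on every IFN-β array than on every PBS array, and Ccr2 overlapped. Cx3cr1 went the other way there, at -5.07 to -4.98 after IFN-β and -2.34 to -1.43 after PBS. The 10 T and NK cell markers summed to 4.57 to 4.86 in wild-type IFN-β cells and 6.92 to 8.07 in wild-type PBS cells. The part of these markers in the transporter responses was not tested.

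Slc7a11 encodes xCT, the light chain that imports cystine and exports glutamate. Probe A_51_P129502 stood at -4.27, -3.40 and 0.47 in Ifnar2-/- IFN-β cells, -8.02, -7.43 and -7.08 in Ifnar2-/- PBS cells, -4.74, -5.84 and -5.76 in wild-type IFN-β cells, and -6.38, -8.51 and -8.34 in wild-type PBS cells. It was well above background on 3, 0, 2 and 0 of the 3 arrays of these groups. The IFN-β and PBS arrays did not overlap in either genotype, and Ifnar2-/- IFN-β replicate 3 lay far above the other arrays.

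In Ifnar2-/- cells the fitted difference of this probe was 5.11 (SE 1.03, adjusted p = 0.0471), against a group in which it was not detected. The probe entered the test only through its detection in Ifnar2-/- IFN-β cells, where it was high. Its call and the refits below are therefore description only. Because all Ifnar2-/- PBS arrays were not well above background, the size is given as at least 9.91-fold higher after IFN-β, between measured means of -2.40 ± 2.52 and -7.51 ± 0.48 (SD, n = 3 each). The bound sets the bright group's mean against, per array, the higher of the lowest detected signal and the probe's own. It is a bound on the group mean and not on each mouse. Replicate 3 lay far above that mean, and the other Ifnar2-/- IFN-β arrays lay below it. In wild-type cells the difference was 2.30 (SE 1.03, adjusted p = 0.103) with means of -5.44 ± 0.61 after IFN-β and -7.74 ± 1.18 after PBS (SD, n = 3 each), at least 2.05-fold with 2 of the 3 IFN-β arrays measured, and normexp background correction shrank it to 0.42. The responses differed by 2.81 (SE 1.46, adjusted p = 0.231), and that test was not passed.

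Of the remaining Slc7a11 probes none was called in any comparison. A_52_P663446 read -5.12, -3.92 and -2.89 in Ifnar2-/- IFN-β cells, -8.88, -5.99 and -7.20 in Ifnar2-/- PBS cells, -5.88, -7.21 and -7.31 in wild-type IFN-β cells and -7.20, -8.58 and -8.71 in wild-type PBS cells. Its difference in Ifnar2-/- cells was 3.38 (SE 0.78, adjusted p = 0.0693), at least 3.33-fold, and in wild-type cells 1.37 (SE 0.78, adjusted p = 0.192). A_52_P368057, detected on 2 arrays of Ifnar2-/- IFN-β cells and on 0 others, was not tested and read -5.72, -5.28 and -0.34 there, against -8.84, -7.66 and -7.20 in Ifnar2-/- PBS cells. A_52_P298824, which lies farthest upstream of the other probes on the minus strand, was detected on 0 arrays.

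The Slc7a11 call in Ifnar2-/- cells sat close to the threshold. It held in 2 of the 12 fits that left out 1 array, those without Ifnar2-/- IFN-β replicate 1 and without replicate 3, with differences of 3.67 to 6.04 over the 12 fits and an adjusted p of up to 0.165. It held under 5 of 12 other processing settings, with an adjusted p between 0.00791 and 0.585, and ended with normexp background correction (difference 2.03, adjusted p = 0.128) and with a fixed slide term (adjusted p = 0.0593). That term made the call of A_52_P663446 instead, in Ifnar2-/- cells (adjusted p = 0.0259) and in wild-type cells (2.28, adjusted p = 0.0376). In wild-type cells, leaving out Ifnar2-/- IFN-β replicate 3 gave an adjusted p of 0.00828 for the same difference of 2.30.

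In Ifnar2-/- cells the summed signal of neutrophil markers moved with Slc7a11, and the part of these markers in its response was not tested. Of the 12 listed genes, 11 were on the array and 7 were detected on all arrays. Their sum was 21.6, 81.8 and 201 in Ifnar2-/- IFN-β cells, 17.4, 12.4 and 17.5 in Ifnar2-/- PBS cells, 17.7, 18.1 and 25.1 in wild-type IFN-β cells and 110, 15.8 and 10.4 in wild-type PBS cells. S100a9 was the brightest of them on each Ifnar2-/- IFN-β array (2.98, 5.71 and 7.14, against 0.84 to 2.51 after PBS). Not every marker separated the Ifnar2-/- groups. Csf3r (2.10 to 2.46 after IFN-β, 1.99 to 2.32 after PBS) and Mmp9 (1.17 to 1.54 and 0.99 to 1.99) overlapped, as did Mmp8 and Ltf. Wild-type PBS replicate 1, with a sum of 110, had Slc7a11 A_51_P129502 at -6.38, above the other wild-type PBS arrays (-8.51 and -8.34) and not well above background. Ifnar2-/- IFN-β replicate 1, with a sum of 21.6, had it at -4.27 and well above background. Without Ifnar2-/- IFN-β replicate 3 the Slc7a11 difference was 3.67 and called, in a fit that kept replicate 2 with its sum of 81.8. Without both arrays of highest marker sum the wild-type difference was 2.98 and called (adjusted p = 0.00066), a setting chosen after seeing the data. That setting leaves out the highest wild-type PBS value of this probe, which by itself raises the difference. Neither fit tests the part of the markers.

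**Figure D2:**
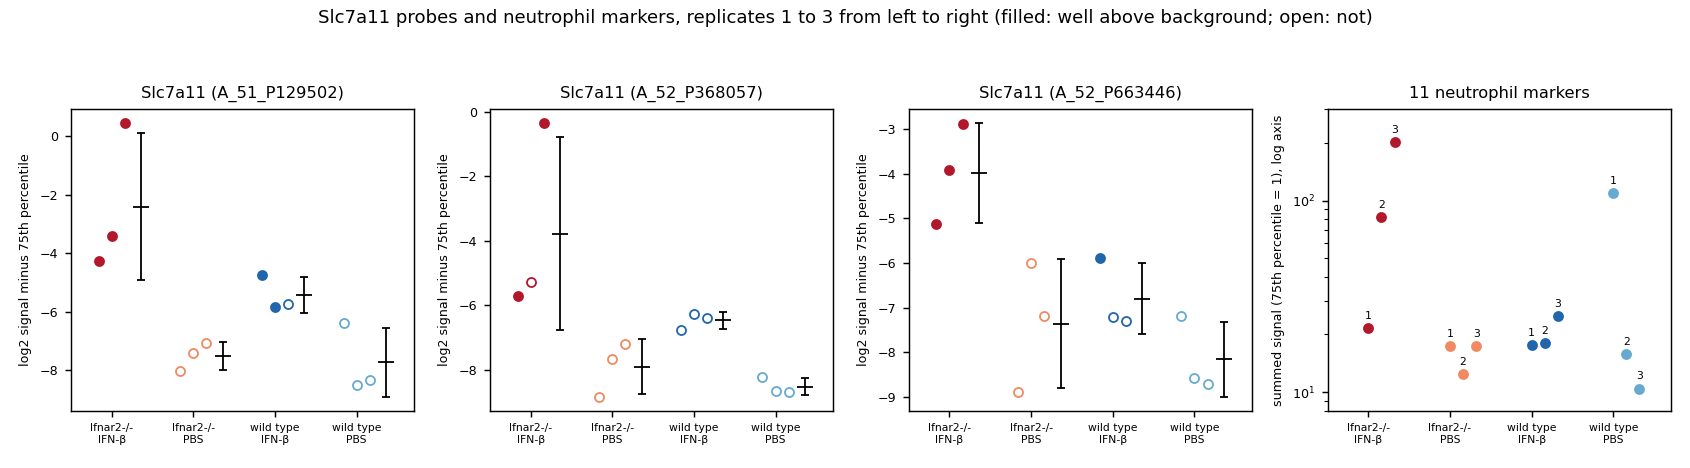
Levels of the 3 Slc7a11 probes that were detected on any array (log2 scale, bars are means ± SD, n = 3, filled points are well above background) and, at the right, the summed signal of 11 neutrophil markers per array on a log axis with replicate numbers. Ifnar2-/- IFN-β replicate 3 is highest in all 4 panels, and wild-type PBS replicate 1, at 110 in the marker panel, has open points for all 3 probes.

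Slc3a2 encodes the heavy chain (CD98, 4F2hc) that carries Slc7a11, Slc7a5, Slc7a8, Slc7a7 and Slc7a6 to the cell surface. Its probe A_51_P472901 stood at 3.83, 3.50 and 4.11 in Ifnar2-/- IFN-β cells, 3.59, 3.25 and 3.43 in Ifnar2-/- PBS cells, 3.68, 3.73 and 3.63 in wild-type IFN-β cells and 2.88, 3.07 and 3.03 in wild-type PBS cells. Groups separated in wild type and overlapped in Ifnar2-/- cells. The difference was 0.39 (SE 0.16, adjusted p = 0.226) in Ifnar2-/- cells and 0.69 (SE 0.16, adjusted p = 0.00518) in wild-type cells. The other probe, A_52_P245648, gave 0.40 (SE 0.15, adjusted p = 0.208) in Ifnar2-/- cells and 0.76 (SE 0.15, adjusted p = 0.00265) in wild-type cells, and for neither probe did the difference between responses pass. Both wild-type calls ended with a fixed slide term (adjusted p = 0.0641 and 0.0713), and that of A_51_P472901 with quantile normalization too (0.0526). Slc3a1, the kidney and gut heavy chain, was detected on all 3 wild-type PBS arrays, on 1 array of each Ifnar2-/- group and on 0 wild-type IFN-β arrays, and changed in no comparison.

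Slc7a5 (LAT1), which takes up leucine and other large neutral amino acids in exchange for glutamine, rose in both genotypes. Levels were -0.19, -0.36 and 0.87 in Ifnar2-/- IFN-β cells, -2.71, -2.42 and -1.23 in Ifnar2-/- PBS cells, 0.97, 1.01 and 0.75 in wild-type IFN-β cells, and -0.82, -0.89 and -0.45 in wild-type PBS cells. Every IFN-β array lay above every PBS array of its genotype. The rise was 2.22 (SE 0.39, adjusted p = 0.0256) in Ifnar2-/- cells and 1.63 (SE 0.39, adjusted p = 0.00672) in wild-type cells, and the responses differed by 0.60 (SE 0.55, adjusted p = 0.532). After PBS the difference between Ifnar2-/- and wild-type cells was -1.40 (SE 0.39) and did not pass (adjusted p = 0.0751). It passed with the replicate number as a block (0.0374), although the numbers do not pair the samples. On slides 1 and 2 alone it was -1.99, with 1 Ifnar2-/- PBS array left and no slide holding PBS arrays of both genotypes. The Ifnar2-/- call held in 8 of the 12 fits that left out 1 array and ended without wild-type IFN-β replicate 1, Ifnar2-/- PBS replicate 1 or 2, or Ifnar2-/- IFN-β replicate 3, with differences of 1.84 to 2.67 and an adjusted p of up to 0.124.

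Slc7a8 (LAT2), another exchanger of neutral amino acids, was higher in Ifnar2-/- than in wild-type cells after PBS. It stood at 1.68, 1.29 and 1.12 in Ifnar2-/- IFN-β cells, 1.32, 1.06 and 1.39 in Ifnar2-/- PBS cells, 1.66, 1.44 and 1.51 in wild-type IFN-β cells and 0.10, 0.45 and 0.02 in wild-type PBS cells. The wild-type PBS arrays alone were low. The response was 0.11 (SE 0.17, adjusted p = 0.775) in Ifnar2-/- cells and 1.35 (SE 0.17, adjusted p = 0.000132) in wild-type cells, a difference between responses of -1.24 (SE 0.24, adjusted p = 0.00534). After PBS, Ifnar2-/- cells were higher than wild-type cells by 1.07 (SE 0.17, adjusted p = 0.00539). That call ended with a fixed slide term (1.44, adjusted p = 0.185), and no slide held PBS arrays of both genotypes.

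Slc7a9, the light chain that pairs with Slc3a1 for cystine and basic amino acids in kidney and gut, was near the detection limit. Its levels were -6.79, -6.43 and -5.61 in Ifnar2-/- IFN-β cells, -5.96, -5.69 and -5.68 in Ifnar2-/- PBS cells, -5.12, -5.11 and -4.54 in wild-type IFN-β cells and -7.13, -6.76 and -6.86 in wild-type PBS cells. The probe was well above background on 0, 1, 3 and 0 of the 3 arrays of these groups, so it was tested only through the group where it was high. In wild-type cells the difference was 1.99 (SE 0.27, adjusted p = 0.000233), at least 3.02-fold, between means of -4.93 ± 0.33 after IFN-β and -6.92 ± 0.19 after PBS (SD, n = 3 each). With normexp background correction the wild-type difference was 0.51, under that bound. The fitted difference between responses of -2.49 (SE 0.39, adjusted p = 0.00142) rests on Ifnar2-/- values of which 1 of 6 was detected, so its size is not a measured one.

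The other SLC7 light chains did not change by the test in any comparison. Slc7a7, the partner of Slc3a2 that exports arginine from macrophages, averaged 4.55 ± 0.31 in Ifnar2-/- IFN-β cells, 4.23 ± 0.29 in Ifnar2-/- PBS cells, 4.23 ± 0.10 in wild-type IFN-β cells and 3.93 ± 0.07 in wild-type PBS cells (SD, n = 3 each). Slc7a6, a related exchanger, had 2 probes that pointed opposite ways in wild-type cells (-0.55, SE 0.29, and 0.49, SE 0.27, adjusted p = 0.168 and 0.175). Slc7a15 had a wild-type difference of -0.53 (SE 0.26, adjusted p = 0.134).

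Slc7a2, a cationic carrier that supplies arginine to macrophages, had the steepest wild-type response of the 51 probes. It read -1.28, -1.74 and -1.35 in Ifnar2-/- IFN-β cells, -2.80, -3.14 and -2.38 in Ifnar2-/- PBS cells, 0.07, -0.09 and -0.40 in wild-type IFN-β cells and -3.99, -3.06 and -3.46 in wild-type PBS cells. IFN-β and PBS arrays did not overlap in either genotype. Slc7a2 rose by 1.32 (SE 0.26, adjusted p = 0.044) in Ifnar2-/- cells and by 3.36 (SE 0.26, adjusted p = 4.01e-06) in wild-type cells, and the responses differed by -2.04 (SE 0.37, adjusted p = 0.00334). The Ifnar2-/- call held in 2 of the 12 fits that left out 1 array, those without wild-type PBS replicate 1 and without replicate 2, with differences of 1.13 to 1.52 and an adjusted p of up to 0.176. It ended with a fixed slide term too (adjusted p = 0.0846).

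Slc7a3, a cationic carrier best known from brain and thymus, was detected on all 3 arrays of wild-type IFN-β cells, on 1 of wild-type PBS cells and on 0 of the Ifnar2-/- arrays. It was tested only through the group where it was high. Its levels were -7.08, -7.55 and -6.66 in Ifnar2-/- IFN-β cells, -7.25, -7.49 and -7.35 in Ifnar2-/- PBS cells, -5.23, -5.01 and -4.36 in wild-type IFN-β cells and -6.07, -6.66 and -6.94 in wild-type PBS cells. The fitted wild-type difference was 1.69 (SE 0.29, adjusted p = 0.00102), and 0.51 with normexp background correction. The fitted difference between responses was -1.42 (SE 0.41, adjusted p = 0.0365), set against Ifnar2-/- arrays with no detected signal. That call ended with a fixed slide term (-1.06, adjusted p = 0.243) and with quantile normalization (0.112), and held in 3 of the 12 fits that left out 1 array, those without wild-type PBS replicate 1, wild-type IFN-β replicate 1 or Ifnar2-/- IFN-β replicate 3 (differences -1.67 to -1.17, adjusted p up to 0.085).

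Slc7a4, a relative of the cationic carriers whose substrate is not established, went the other way. It stood at -2.61, -2.99 and -4.98 in Ifnar2-/- IFN-β cells, -2.18, -2.41 and -1.88 in Ifnar2-/- PBS cells, -4.33, -4.11 and -4.43 in wild-type IFN-β cells and -2.54, -2.02 and -2.49 in wild-type PBS cells. Ifnar2-/- IFN-β replicate 3 lay near the wild-type IFN-β arrays, and the other Ifnar2-/- IFN-β arrays lay just below the PBS arrays. The difference was -1.37 (SE 0.48, adjusted p = 0.185) in Ifnar2-/- cells and -1.94 (SE 0.48, adjusted p = 0.00883) in wild-type cells. With slide as a fixed block the wild-type call ended (adjusted p = 0.0702). Slc7a1, the widespread arginine carrier, had differences of 0.35 (SE 0.26) in Ifnar2-/- cells and 0.54 (SE 0.26) in wild-type cells, neither called.

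**Figure D3:**
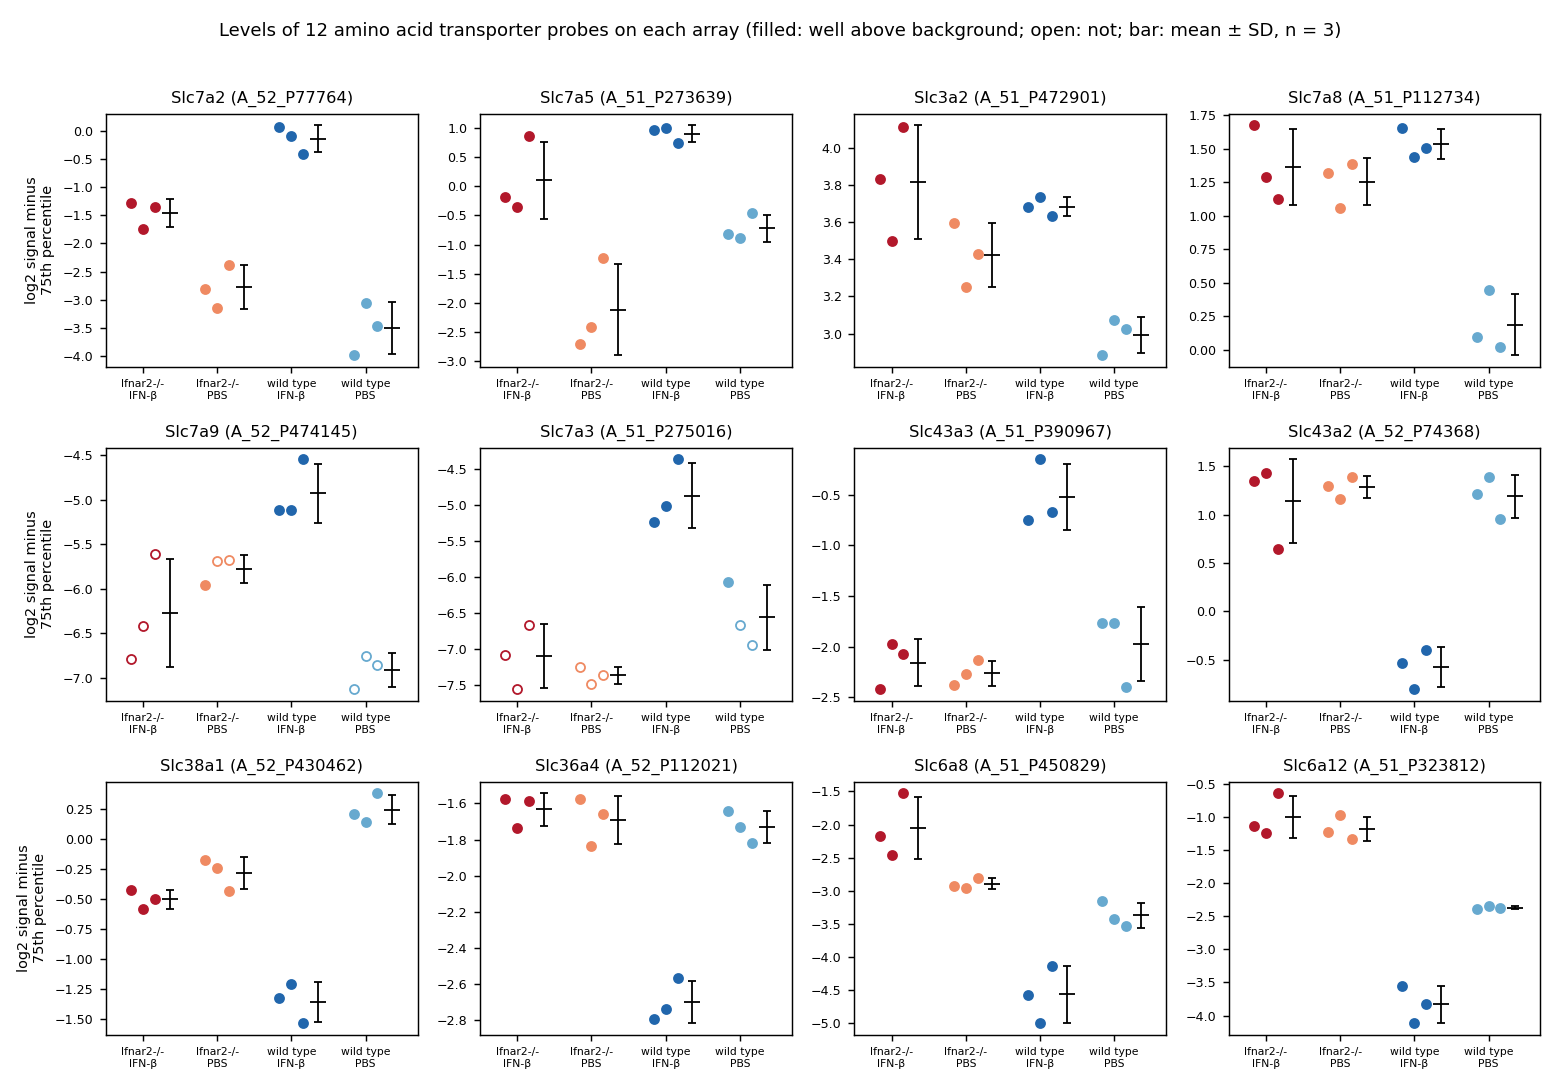
Level of 12 transporter probes on each array (log2 signal minus the 75th percentile of the array; each panel has its own scale), with means ± SD (n = 3) beside the points and open points not well above background. Slc7a2, Slc7a3, Slc7a9 and Slc43a3 are highest in wild-type IFN-β cells, and Slc43a2, Slc38a1, Slc36a4, Slc6a8 and Slc6a12 are lowest there.

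Slc38a1 (SNAT1), a sodium-coupled carrier that brings in glutamine, fell in wild-type cells by all 6 of its probes, with differences of -1.60 to -1.10. Probe A_52_P430462 stood at -0.42, -0.58 and -0.50 in Ifnar2-/- IFN-β cells, -0.17, -0.24 and -0.43 in Ifnar2-/- PBS cells, -1.32, -1.21 and -1.53 in wild-type IFN-β cells and 0.21, 0.14 and 0.38 in wild-type PBS cells. The wild-type IFN-β arrays were below every other array. The difference was -0.22 (SE 0.12, adjusted p = 0.376) in Ifnar2-/- cells and -1.60 (SE 0.12, adjusted p = 4.25e-06) in wild-type cells, and the responses differed by 1.38 (SE 0.18, adjusted p = 0.000391).

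The probes of Slc38a1 that sit next to it gave like values. A_51_P133005 read 1.73, 1.75 and 1.77 in Ifnar2-/- IFN-β cells, 2.14, 2.11 and 2.03 in Ifnar2-/- PBS cells, 0.89, 1.29 and 0.61 in wild-type IFN-β cells and 2.45, 2.44 and 2.65 in wild-type PBS cells. A_51_P489788 read 1.11, 1.06 and 1.11 in Ifnar2-/- IFN-β cells, 1.58, 1.53 and 1.20 in Ifnar2-/- PBS cells, 0.22, 0.50 and 0.05 in wild-type IFN-β cells and 1.80, 1.67 and 1.72 in wild-type PBS cells. On both probes the Ifnar2-/- IFN-β arrays lay below the Ifnar2-/- PBS arrays, although neither Ifnar2-/- difference of -0.34 passed (adjusted p = 0.271 and 0.236). The responses differed by 1.24 (SE 0.22) and 1.13 (SE 0.20).

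Over the 6 probes the Ifnar2-/- differences ran from -0.34 to 0.10, and 5 of the 6 differences between responses were called, from 1.05 to 1.38, of which that of A_51_P507053 (1.05) ended with a fixed slide term (adjusted p = 0.104). A_52_P232648 had the only Ifnar2-/- difference above 0 (0.10, SE 0.19), with -2.28, -2.04 and -1.69 in Ifnar2-/- IFN-β cells, -2.36, -1.78 and -2.16 in Ifnar2-/- PBS cells, -2.90, -2.79 and -3.15 in wild-type IFN-β cells and -1.69, -1.90 and -1.72 in wild-type PBS cells. The probe without a called difference between responses was A_52_P190992 (0.85, SE 0.30, adjusted p = 0.0779), which lies at the far end of the gene from the others, at chr15:96640755-96640814 (mm7).

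Slc38a2 (SNAT2), a neutral amino acid carrier known to be induced by amino acid shortage, fell in wild-type cells by 3 of its 4 probes. Their wild-type differences were -0.69 (SE 0.13, adjusted p = 0.00151), -0.57 (SE 0.16, adjusted p = 0.0167) and -0.54 (SE 0.16, adjusted p = 0.0218), whereas all 4 Ifnar2-/- differences were above 0, at 0.27 to 0.49 with no call. The 3 differences between responses that were called were 1.09 (SE 0.18), 0.84 (SE 0.23) and 0.86 (SE 0.23). The most precise probe, A_51_P458384, read 3.36, 3.35 and 3.61 in Ifnar2-/- IFN-β cells, 3.14, 2.99 and 3.01 in Ifnar2-/- PBS cells, 2.55, 2.75 and 2.41 in wild-type IFN-β cells and 3.28, 3.14 and 3.37 in wild-type PBS cells. The fourth, A_52_P676686, averaged 0.90 in both wild-type groups (SD 0.19 after IFN-β and 0.14 after PBS).

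The 2 weaker Slc38a2 probes, A_51_P199314 and A_52_P459046, lost their calls with a fixed slide term, in wild-type cells (adjusted p = 0.0625 and 0.0931) and for the difference between responses (0.0725 and 0.0839). They also rested on single arrays. In wild-type cells both ended without wild-type PBS replicate 1 or wild-type IFN-β replicate 1, and that of A_52_P459046 also without wild-type IFN-β replicate 3, with an adjusted p of up to 0.0665 for A_51_P199314 and 0.0759 for A_52_P459046. Their differences between responses held in 8 and 6 of the 12 fits, and both ended without wild-type PBS replicate 1, wild-type IFN-β replicate 1 or Ifnar2-/- PBS replicate 2 or 3. That of A_52_P459046 also ended without wild-type PBS replicate 3 or wild-type IFN-β replicate 3. Slc38a3 and Slc38a4, both best known from liver, were near the detection limit and changed in no comparison. Of the 14 SLC38 probes on the array 12 were tested, and 9 fell in wild-type cells.

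**Figure D4:**
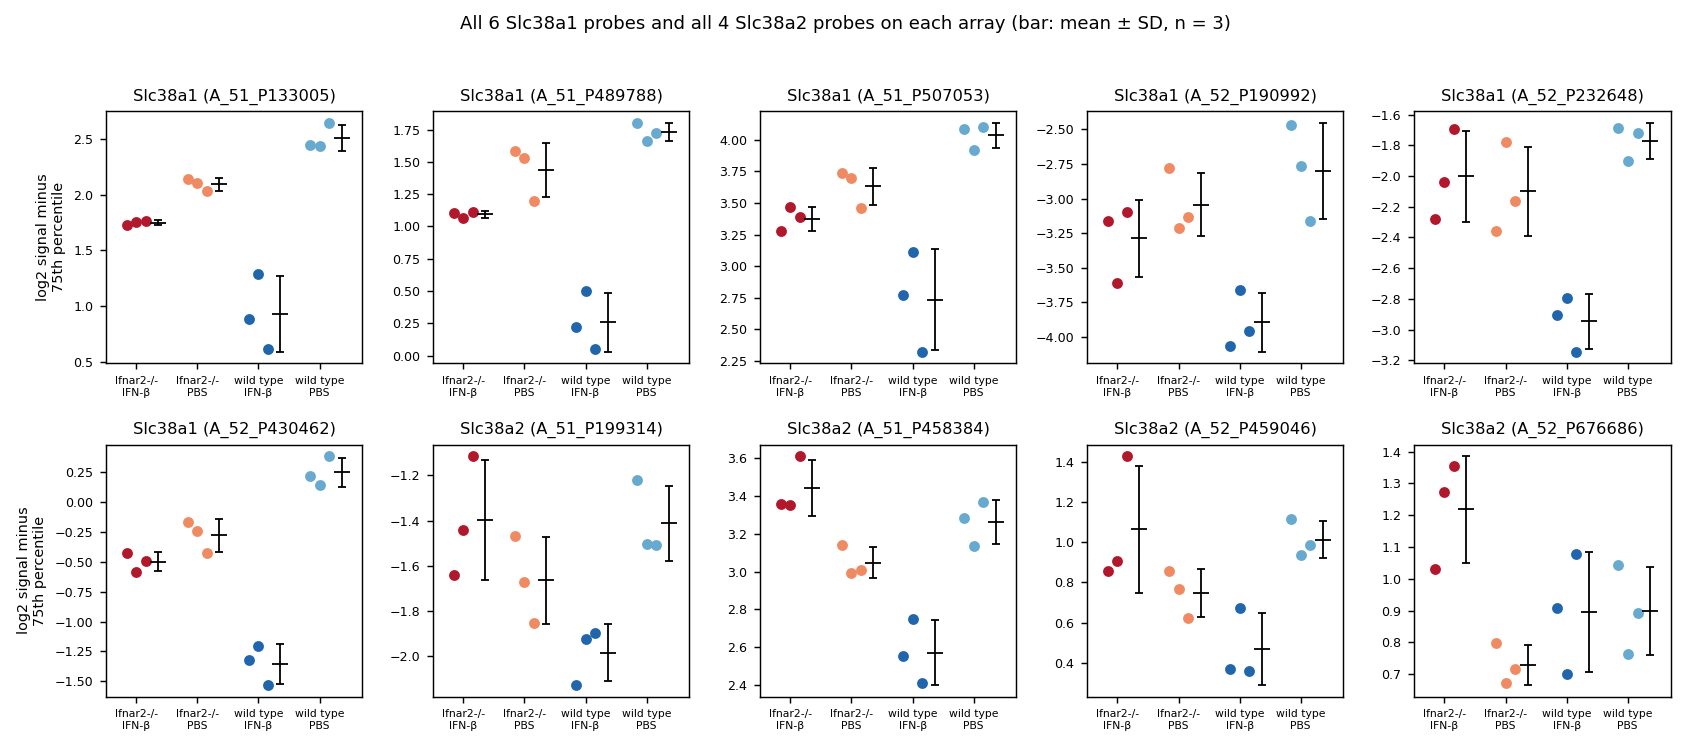
Levels of the 6 Slc38a1 probes and the 4 Slc38a2 probes on each array (log2 signal minus the 75th percentile of the array, bars are means ± SD, n = 3). In 9 of the 10 panels the wild-type IFN-β arrays have the lowest mean; the exception is Slc38a2 A_52_P676686.

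Slc36a4, a carrier of proline and tryptophan, fell in wild-type cells by both of its neighbouring probes. A_52_P112021 stood at -1.58, -1.74 and -1.59 in Ifnar2-/- IFN-β cells, -1.57, -1.84 and -1.66 in Ifnar2-/- PBS cells, -2.79, -2.74 and -2.57 in wild-type IFN-β cells and -1.64, -1.73 and -1.82 in wild-type PBS cells. Only the wild-type IFN-β arrays stood apart. The difference was 0.06 (SE 0.11) in Ifnar2-/- cells and -0.97 (SE 0.11, adjusted p = 8.24e-05) in wild-type cells, and the responses differed by 1.02 (SE 0.16, adjusted p = 0.00154). A_51_P416910 gave 0.04 (SE 0.10) in Ifnar2-/- cells and -0.87 (SE 0.10, adjusted p = 5.57e-05) in wild-type cells, with a difference between responses of 0.91 (SE 0.14, adjusted p = 0.00116).

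Slc36a1 (PAT1), which exports small amino acids from lysosomes, had differences of -0.37 (SE 0.18, adjusted p = 0.288) in Ifnar2-/- cells and -0.70 (SE 0.18, adjusted p = 0.00892) in wild-type cells. Its responses did not differ by the test (0.33, SE 0.25, adjusted p = 0.43). After PBS it was higher in Ifnar2-/- cells than in wild-type cells by 0.78 (SE 0.18, adjusted p = 0.0318), a call that ended with a fixed slide term (0.80, adjusted p = 0.763). The 3 Slc36a3 probes changed in no comparison.

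In the SLC43 family 2 members moved in opposite directions in wild-type cells. Slc43a2 (LAT4), an efflux route for branched-chain amino acids and phenylalanine, read 1.35, 1.43 and 0.64 in Ifnar2-/- IFN-β cells, 1.30, 1.16 and 1.39 in Ifnar2-/- PBS cells, -0.54, -0.81 and -0.40 in wild-type IFN-β cells and 1.21, 1.40 and 0.96 in wild-type PBS cells by probe A_52_P74368. Its difference was -0.14 (SE 0.21) in Ifnar2-/- cells and -1.77 (SE 0.21, adjusted p = 8.29e-05) in wild-type cells, and the responses differed by 1.63 (SE 0.30, adjusted p = 0.00361). The second probe, A_51_P296182, gave -0.24 (SE 0.26) in Ifnar2-/- cells and -0.94 (SE 0.26, adjusted p = 0.0143) in wild-type cells, with no called difference between responses (0.70, SE 0.36). Its wild-type call ended without wild-type PBS replicate 1 or 2 or wild-type IFN-β replicate 2 (adjusted p up to 0.0582) and with a fixed slide term (0.173).

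Slc43a3, placed in the family by sequence but known to carry purine bases, stood at -2.42, -1.97 and -2.08 in Ifnar2-/- IFN-β cells, -2.38, -2.27 and -2.13 in Ifnar2-/- PBS cells, -0.75, -0.15 and -0.67 in wild-type IFN-β cells and -1.76, -1.77 and -2.40 in wild-type PBS cells. The wild-type IFN-β arrays were above all others. It rose by 1.45 (SE 0.22, adjusted p = 0.00038) in wild-type cells, against a difference of 0.11 (SE 0.22) in Ifnar2-/- cells, and the responses differed by -1.35 (SE 0.30, adjusted p = 0.0118), a call that ended with a fixed slide term (-1.12, adjusted p = 0.0848). Slc43a1 (LAT3) had a wild-type difference of 0.01 (SE 0.26).

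In the SLC6 family 5 of the 11 tested probes, for 4 genes, fell in wild-type cells and 0 rose. Slc6a12, a betaine and GABA carrier, read -1.13, -1.24 and -0.64 in Ifnar2-/- IFN-β cells, -1.23, -0.98 and -1.33 in Ifnar2-/- PBS cells, -3.55, -4.11 and -3.82 in wild-type IFN-β cells and -2.39, -2.35 and -2.37 in wild-type PBS cells. Every Ifnar2-/- array was above every wild-type array. The difference was 0.17 (SE 0.19) in Ifnar2-/- cells and -1.46 (SE 0.19, adjusted p = 0.000133) in wild-type cells, and the responses differed by 1.63 (SE 0.26, adjusted p = 0.00169). After PBS the genotypes differed by 1.19 (SE 0.19, adjusted p = 0.0044), higher in Ifnar2-/- cells, a call that ended with a fixed slide term (1.52, adjusted p = 0.208).

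Slc6a8, the creatine carrier, showed responses of opposite sign. Its levels were -2.17, -2.46 and -1.53 in Ifnar2-/- IFN-β cells, -2.92, -2.96 and -2.80 in Ifnar2-/- PBS cells, -4.57, -5.00 and -4.13 in wild-type IFN-β cells and -3.16, -3.42 and -3.53 in wild-type PBS cells. Within each genotype the IFN-β and PBS arrays did not overlap. The difference was 0.84 (SE 0.25, adjusted p = 0.137) in Ifnar2-/- cells and -1.19 (SE 0.25, adjusted p = 0.00368) in wild-type cells, and the test of the difference gave 2.04 (SE 0.36, adjusted p = 0.00302). The wild-type call ended with normexp background correction, where the difference shrank to -0.39 (adjusted p = 0.073), and with a fixed slide term (adjusted p = 0.0568).

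Slc6a4, the serotonin carrier, had differences of -0.41 (SE 0.24, adjusted p = 0.39) in Ifnar2-/- cells and -1.10 (SE 0.24, adjusted p = 0.00437) in wild-type cells. It lay at 1.46 to 2.12 in Ifnar2-/- IFN-β cells, 2.04 to 2.20 in Ifnar2-/- PBS cells, 0.05 to 0.32 in wild-type IFN-β cells and 0.89 to 1.85 in wild-type PBS cells. The 9 mast cell markers summed to 310 to 351 in Ifnar2-/- IFN-β cells, 316 to 385 in Ifnar2-/- PBS cells, 230 to 273 in wild-type IFN-β cells and 227 to 304 in wild-type PBS cells, so the wild-type groups overlapped in the sum. Single markers differed: Kit, Mcpt4, Tpsb2 and Mrgprb2 were lower on every wild-type IFN-β array than on every wild-type PBS array, and Hdc was higher. Their part in the Slc6a4 difference was not tested. With slide as a fixed block the Slc6a4 call ended (adjusted p = 0.0551).

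Slc6a13, a GABA and taurine carrier, fell in wild-type cells by 2 probes that share most of their bases, with differences of -0.49 (SE 0.17, adjusted p = 0.0393) and -0.51 (SE 0.16, adjusted p = 0.0239). These calls held in 5 and in 8 of the 12 fits that left out 1 array, and both ended without wild-type PBS replicate 1 or 3 or wild-type IFN-β replicate 1 or 2. Leaving out any 1 of the Ifnar2-/- PBS arrays also ended that of A_51_P438083. Both ended too with a fixed slide term (adjusted p = 0.188 and 0.0924), quantile normalization, normexp background correction and no detection filter. Slc6a6, the taurine carrier, averaged 3.06 ± 0.06 in Ifnar2-/- IFN-β cells, 3.21 ± 0.20 in Ifnar2-/- PBS cells, 3.00 ± 0.21 in wild-type IFN-β cells and 2.85 ± 0.11 in wild-type PBS cells by A_52_P339996 (SD, n = 3 each), with no call. Slc6a9 of glycine, Slc6a11, Slc6a16 and Slc6a17 changed in no comparison.

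In the SLC1 family only Slc1a4 and Slc1a5 were tested. Slc1a5 (ASCT2), a glutamine exchanger, stood at 2.46, 2.57 and 3.28 in Ifnar2-/- IFN-β cells, 2.05, 1.90 and 2.27 in Ifnar2-/- PBS cells, 2.21, 2.29 and 1.88 in wild-type IFN-β cells and 2.15, 2.12 and 2.56 in wild-type PBS cells. The difference was 0.70 (SE 0.22, adjusted p = 0.153) in Ifnar2-/- cells and -0.15 (SE 0.22, adjusted p = 0.635) in wild-type cells, neither called.

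The glutamate carriers Slc1a1, Slc1a2, Slc1a3, Slc1a6 and Slc1a7 had no tested probe. Neither did 10 SLC6 genes, among them the dopamine (Slc6a3), noradrenaline (Slc6a2) and proline (Slc6a7) carriers, nor Slc7a10, Slc7a12, Slc7a13, Slc7a14, Slc36a2 and Slc38a5. Their probes were detected on at most 6 of the 12 arrays.

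Between the genotypes after PBS, Ifnar2-/- against wild type, 4 of the 51 probes were higher and 1 was lower, where 2.51% and 2.02% of all tested probes were. Those higher were Slc6a12, Slc7a8 and Slc36a1, with the values above, and Slc7a9, with a fitted difference of 1.14 (SE 0.27, adjusted p = 0.0427). Slc7a9 was detected on 1 of these 6 arrays, no fold is given, and normexp background correction shrank the difference to 0.14 (adjusted p = 0.52). The one lower was Slc38a1 A_52_P430462 (-0.53, SE 0.12, adjusted p = 0.04), 1 of 6 probes of that gene, whose differences ran from -0.53 to -0.24. No slide held PBS arrays of both genotypes, so slide and genotype cannot be told apart within a slide. With a fixed slide term 0 of the 51 probes were called, but of all 27715 probes only 23 were called higher and 35 lower. That count therefore does not set these members apart. The calls of Slc6a12 and Slc7a8 held in all 12 fits that left out 1 array, with differences of 1.09 to 1.27 and 0.98 to 1.20. That of Slc36a1 ended without Ifnar2-/- PBS replicate 1 or 3 or any wild-type PBS replicate (adjusted p up to 0.124). That of Slc7a9 held in 3 of the 12, those without wild-type IFN-β replicate 3 or Ifnar2-/- IFN-β replicate 1 or 3, and that of Slc38a1 in 5 of the 12, those without wild-type IFN-β replicate 2 or 3, Ifnar2-/- PBS replicate 1 or Ifnar2-/- IFN-β replicate 1 or 3 (adjusted p up to 0.162 and 0.161).

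Genes that act around these carriers were read through lists, with each gene represented by its brightest tested probe. Over all 18274 genes so represented, 0.93% rose and 0.208% fell in Ifnar2-/- cells, 17.7% rose and 21.9% fell in wild-type cells, 8.7% and 9.14% had a difference between responses above and below 0, and 2.77% and 2.01% were higher and lower in Ifnar2-/- than in wild-type cells after PBS. Of the 34 transporter genes on that footing, 3 rose in Ifnar2-/- cells, and 7 rose and 10 fell in wild-type cells. Their difference between responses was called above 0 for 6 and below 0 for 5.

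Among 15 other amino acid and peptide transporters, 1 rose in Ifnar2-/- cells, and 4 rose and 3 fell in wild-type cells. The lysosomal peptide carrier Slc15a3 rose by 1.39 (SE 0.27, adjusted p = 0.0405) in Ifnar2-/- cells and by 3.67 (SE 0.27, adjusted p = 2.67e-06) in wild-type cells. In wild-type cells the mitochondrial glutamate carrier Slc25a22 rose by 3.19 (SE 0.16). The mitochondrial aspartate and glutamate carriers moved apart there, Slc25a12 by 1.45 (SE 0.12) and Slc25a13 by -1.90 (SE 0.22).

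Among 34 amino acid metabolizing enzymes 2 rose in Ifnar2-/- cells, and 13 rose and 10 fell in wild-type cells. Arg1, the arginase that uses the arginine Slc7a2 brings in, rose by 1.51 (SE 0.28, adjusted p = 0.037) in Ifnar2-/- cells and by 2.92 (SE 0.28, adjusted p = 2.08e-05) in wild-type cells. After PBS it was higher in Ifnar2-/- than in wild-type cells by 3.99 (SE 0.28, adjusted p = 2.96e-05). Acod1, which makes itaconate and was placed in the list although it does not act on an amino acid, rose by 6.18 (SE 0.54) in Ifnar2-/- cells and by 9.17 (SE 0.54) in wild-type cells. The tryptophan-degrading Ido1 rose in wild-type cells by 4.76 (SE 0.44) and the branched-chain aminotransferase Bcat1 by 2.66 (SE 0.84, adjusted p = 0.0277).

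The 26 amino acid response genes included targets of the transcription factor ATF4 and genes that act upstream of it, such as Eif2s1. In Ifnar2-/- cells 1 rose (Eif2s1, 0.77, SE 0.15, adjusted p = 0.0439), and in wild-type cells 8 rose and 9 fell. In wild-type cells Atf3 rose by 3.00 (SE 0.35) and the folate enzyme Mthfd2 by 1.92 (SE 0.35), whereas Ddit4, an mTORC1 inhibitor, changed by -2.12 (SE 0.46) and the transaminase Gpt2 by -1.30 (SE 0.18). After PBS the asparagine synthetase Asns was higher in Ifnar2-/- than in wild-type cells by 1.65 (SE 0.38, adjusted p = 0.0327) and Atf5 by 1.02 (SE 0.18, adjusted p = 0.00907). With a fixed slide term 0 genes of this list or of the enzyme list with Arg1 were called after PBS, against 2 and 3 without it. Of all 27715 probes that term left only 23 higher and 35 lower, so the loss is not particular to these lists. The 22 glutathione and NRF2 genes had 2 that rose in Ifnar2-/- cells, and 6 that rose and 3 that fell in wild-type cells. The metallothionein Mt2 rose by 3.14 (SE 0.53, adjusted p = 0.0231) in Ifnar2-/- cells and by 1.98 (SE 0.53, adjusted p = 0.0126) in wild-type cells, and in wild-type cells Mt1 rose by 1.91 (SE 0.31) and the NRF2 inhibitor Keap1 by 1.71 (SE 0.14), whereas Osgin1 changed by -1.80 (SE 0.26). Nfe2l2, which encodes NRF2, rose by 0.62 (SE 0.11, adjusted p = 0.0263) in Ifnar2-/- cells.

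Of 19 cytosolic aminoacyl-tRNA synthetases, the enzymes that charge tRNA with amino acids, 1 rose in Ifnar2-/- cells (Farsa, 0.59, SE 0.11), and 10 rose and 1 fell in wild-type cells. The tryptophanyl enzyme Wars rose by 2.46 (SE 0.17, adjusted p = 1.48e-06) in wild-type cells, and the arginyl (Rars) and lysyl (Kars) enzymes by 1.40 (SE 0.17) and 1.11 (SE 0.12). Among 34 genes of mTORC1 and lysosomal amino acid sensing, 0 changed in Ifnar2-/- cells, and 4 rose and 10 fell in wild-type cells. Those that fell there included the leucine sensor relative Sesn1 (-1.70, SE 0.31), Castor2 (-1.51, SE 0.15), Flcn (-1.12, SE 0.14) and Nprl2 (-0.99, SE 0.14), all of them regulators of mTORC1. Without scaling between arrays the wild-type counts were 4 up and 2 down for the synthetases and 1 up and 13 down for the mTORC1 list.

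Promoter windows of 250 bases before to 50 after a start site were looked up in RefSeq (GRCm38.p6) for 14 members that the results turn on, and 7 had one. Slc38a1, Slc43a3, Slc6a8, Slc7a2, Slc7a3, Slc7a4 and Slc7a5 had none in the table. Both strands were searched for TGATGNAA, an amino acid response element, for TGACNNNGC, the core of the antioxidant response element, and for GAAANNGAA, the core of the interferon-stimulated response element. Of all 32851 promoters of the table, 3.97%, 12.4% and 8.56% hold a match to these. The first was found in 1 gene, the second in 0 and the third in 2 (Slc7a8 and Slc6a12). The windows of Slc7a11 and Slc7a8, both on the minus strand, are shown as examples of a response element each, with the matches in capitals.
Slc7a11 (chr3:50443564-50443863, GRCm38.p6): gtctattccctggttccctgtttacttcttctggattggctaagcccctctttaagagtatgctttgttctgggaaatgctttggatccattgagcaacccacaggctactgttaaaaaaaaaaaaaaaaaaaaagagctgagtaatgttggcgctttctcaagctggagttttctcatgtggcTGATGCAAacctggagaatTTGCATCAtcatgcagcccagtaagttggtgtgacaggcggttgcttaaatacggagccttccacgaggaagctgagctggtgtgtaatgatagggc
Slc7a8 (chr14:54781837-54782136, GRCm38.p6): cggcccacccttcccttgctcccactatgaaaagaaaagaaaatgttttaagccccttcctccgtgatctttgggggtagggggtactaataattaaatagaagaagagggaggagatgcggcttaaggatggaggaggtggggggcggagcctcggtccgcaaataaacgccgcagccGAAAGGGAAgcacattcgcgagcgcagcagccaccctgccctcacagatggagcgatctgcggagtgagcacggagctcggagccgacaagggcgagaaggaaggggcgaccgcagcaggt
In the Slc7a11 window the amino acid response element occurs 2 times, on the plus strand of the window at -66 and inverted at -47 relative to the start site. The Slc7a8 match begins at -71. A match is a description of the letters in the window, and no binding was measured here.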

How the data were processed

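Single-colour Agilent arrays were read, 12 in 4 groups of 3, each from a different mouse per the labels. The deposited values are intensities from the scanner software, Agilent Feature Extraction 9.5.3.1 per the file headers, with background subtracted in the processed signal column. The deposited value table held the same processed signals (0 of 45018 differed). Here log2 of the deposited processed signal minus the 75th percentile of its array was taken, control spots and outlier spots were left out, and spots of 1 probe were averaged. A probe was kept where every array of some group had it well above background (27715 of 41174). limma 3.58.1 in R 4.3.3 was fitted to all 12 arrays (lmFit, eBayes, 8 residual degrees of freedom), with Benjamini-Hochberg adjustment over all kept probes in each of 4 comparisons. The number of arrays limits the precision. The procedure was tested on simulated data.

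The members and gene lists were chosen with earlier results of these data known. Every called member is named. Values on each array are given for members called with a log2 difference of at least 1 (at most the 12 of largest size per comparison) and for Slc7a11, Slc3a2 and Slc7a5, and those of Slc38a2, Slc36a4 and Slc1a5 were added after their values were seen. From other lists, genes are taken from the 4 of largest size among those called per comparison. Current symbols came through accession for 17327 kept probes, symbol for 4170 and older symbol for 1979, and 4239 kept the file's name. Alternatives covered background correction, scaling, the filter, the probe rule, slide and replicate blocks, the groups fitted and each array left out. Restriction to slides 1 and 2, and leaving out both arrays with the highest neutrophil marker sum, were chosen after seeing the data.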

Additional observations from a re-analysis of the deposited data

Results flagged for a closer look

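The responses of 18 probes differed between genotypes by the interaction test (Ifnar2-/- minus wild type, log2). Those above 0 were Slc38a1 (1.24, 1.13, 1.05, 1.28 and 1.38), Slc38a2 (0.84, 1.09 and 0.86), Slc36a4 (0.91 and 1.02), Slc43a2 (1.63), Slc6a12 (1.63) and Slc6a8 (2.04), all of them with a fall in wild-type cells. Those below 0 were Slc43a3 (-1.35), Slc7a2 (-2.04), Slc7a3 (-1.42), Slc7a8 (-1.24) and Slc7a9 (-2.49), all of them with a rise in wild-type cells. Slc7a9 and Slc7a3 were detected on 1 and 0 of the 6 Ifnar2-/- arrays, so the sizes of their differences are fitted and not measured. Slc7a11 is not among them.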

How the results depend on the processing

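No called member changed direction under any alternative. The count of probes called was 3 in Ifnar2-/- cells, 28 in wild-type cells, 18 for the difference between responses and 5 between genotypes after PBS. Slc7a11, Slc7a9 and Slc7a3 are among them, although they passed the filter only through the group where they were high. By 1 probe or the mean of probes per gene the counts were 17 in wild-type cells and 11 for the difference, because fewer features were counted. In Ifnar2-/- cells 0 were called with no filter or with only the groups compared, and 1 without both arrays of highest neutrophil marker sum. Over all probes these settings called 86 up and 9 down, 19 and 0, and 145 and 27, against 261 and 48 in the main fit. Slides 1 and 2 hold 1 Ifnar2-/- array per treatment, so no count is given for them. After PBS there were 2 with no filter, 0 with slide as a fixed block and 3 without the neutrophil-high arrays. Over all probes these settings called 651 higher and 378 lower, 23 and 35, and 570 and 433. The causes were not tested. Leaving out each array gave 0 to 3, 23 to 30, 15 to 19 and 2 to 6 calls, in the order of the first counts. After PBS the uncalled Slc7a11 A_51_P129502 changed sign with quantile normalization (-0.24), normexp (-0.15), slides 1 and 2 (-0.28) and, at -0.15 to 0.91 over the arrays left out, wild-type PBS replicate 2 or 3 left out, and A_52_P663446 on slides 1 and 2 (-0.72).

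Without scaling the median of all genes moved to -0.21 in wild-type cells, 0.31 for the difference and 0.11 after PBS, and with quantile normalization to -0.11 in wild-type cells. With slide as a fixed block the enzyme list had 6 genes up and 6 down in wild-type cells, the amino acid response list 4 and 5, and the synthetases 5 and 0. With quantile normalization the mTORC1 list had 2 up and 14 down.

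Same-numbered arrays did not deviate together throughout (correlations 0.49, 0.18 and 0.09 in Ifnar2-/-, 0.04, -0.12 and -0.12 in wild type, 0.16, -0.13 and -0.05 between the PBS groups), so the numbers do not pair the samples. With the replicate block the calls were 1, 28, 16 and 5. The detection limit was highest on slide 3, which bounds the dim members Slc7a11, Slc7a9 and Slc7a3.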

Other observations

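Slc38a7, a lysosomal glutamine and asparagine carrier, stands under an older name in the files and so is no member. Its probe read -0.22, -0.25 and -0.13 in Ifnar2-/- IFN-β cells, -0.38, -0.42 and -0.34 in Ifnar2-/- PBS cells, -1.30, -1.30 and -1.12 in wild-type IFN-β cells and -0.32, -0.41 and -0.53 in wild-type PBS cells. The wild-type IFN-β arrays were below all others. The difference was 0.18 (SE 0.10, adjusted p = 0.382) in Ifnar2-/- cells and -0.82 (SE 0.10, adjusted p = 0.000122) in wild-type cells, and the responses differed by 1.00 (SE 0.15, adjusted p = 0.000918). The 4 probes of Slc38a9, the lysosomal arginine sensor for mTORC1, and the 2 of Slc38a10 were called in no comparison.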
